A study of Homo sapiens with 9 samples.

Results

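The core autophagy machinery is the set of proteins that builds the autophagosome, the double-membrane vesicle in which a cell encloses part of its own cytoplasm for breakdown in the lysosome. Of the 14943 genes in the count table, 43 belonged to it by symbol: 29 whose symbol starts with ATG and a digit, GABARAP or MAP1LC3 or is one of ULK1, ULK2, ULK3, WIPI1 and WIPI2, and 14 listed by name (WDR45, WDR45B, BECN1, PIK3C3, PIK3R4, UVRAG, AMBRA1, RB1CC1, NBR1, RUBCN, NRBF2, EPG5, VMP1 and TECPR1). The choice went by symbol, but it was made with earlier results of these data known. All 43 genes passed the filter on low counts and entered the tests. Of the protein-coding genes in the annotation with such symbols, MAP1LC3B2 was not analysed here.

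Autophagy starts when the ULK kinase complex, under the control of the kinases TORC1 and AMPK, activates a lipid kinase complex around PIK3C3 that marks the site of membrane growth with phosphatidylinositol 3-phosphate. WIPI proteins read that lipid, ATG9 vesicles and the lipid transfer protein ATG2 supply membrane, and a pair of ubiquitin-like conjugation reactions attaches ATG8 proteins (the LC3 and GABARAP proteins) to the growing membrane, where they recruit cargo receptors. Neurons depend on this pathway to clear damaged mitochondria and protein aggregates from long processes. MicroRNAs act on mRNAs by pairing of the seed, which is bases 2 to 8 from the 5′ end of the microRNA, with a site in the 3′ untranslated region (UTR), and mRNAs so bound are usually degraded.

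SH-Sy5y, a human neuroblastoma line, was transfected with a mimic of miR-1229-3p and lysed about 48 h later for sequencing of polyadenylated RNA, in order to search for direct targets of the microRNA. The groups were Ctrl. (40 pmol of negative control oligo, 0 pmol of mimic), 10 nM (20 pmol of mimic and 20 pmol of negative control) and 20 nM (40 pmol of mimic, 0 pmol of negative control), with 3 libraries each. The negative control thus falls as the mimic rises, and the effects of the oligos cannot be told apart at either concentration or in the dose trend. RNA was pooled from a pair of wells where possible, and the labels do not say that replicates are independent cultures, so p-values measure the spread between these libraries.

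The libraries held 17.4 to 28.2 M estimated counts. All 10 noradrenergic markers of the line were measured, with a summed level of 5346 to 5571 CPM (counts scaled to the library total) in Ctrl., 5671 to 5913 at 10 nM and 5504 to 6371 at 20 nM, although TH (0.598 CPM) and MYCN (4.74 CPM) were low. Of these markers 3 were lower at 20 nM and 0 higher, among them ISL1 (227 CPM in Ctrl., 181 CPM at 20 nM, edgeR adjusted p = 0.00717) and TH (0.598 and 0.154 CPM, edgeR adjusted p = 0.0462). Of 10 markers of mesenchymal-like cells 9 were measured, with summed levels of 1527 to 1654 CPM in Ctrl. and 1582 to 1611 CPM at 20 nM, and 1 of them, CD44, was higher at 20 nM (1.36 and 3.18 CPM, edgeR adjusted p = 0.00293). Their part in the results below was not tested. One library stood apart: on the first principal component (30.4% of the variance) 20 nM replicate 3 had a score of 47.4, whereas the scores of the other 8 libraries ran from -17.1 to 7.72. Less RNA per cell and fewer cells of a kind cannot be told apart in bulk RNA.

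The library that stood apart reached deep into the autophagy genes. It held the highest of all 9 values for 18 of the 43 genes and the lowest for 12, 69.8% together, against 59.7% of all genes tested. The next most extreme library, Ctrl. replicate 1, was at either end for 16 of the 43 (37.2%, against 27.5% of all genes). The genes at which 20 nM replicate 3 was highest had canonical transcripts with a median GC content of 57.8%, and those at which it was lowest 42.8%. Across the 43 genes, its difference from the mean of 20 nM replicates 1 and 2 rose with GC content (Spearman rho = 0.77, Pearson r = 0.74). Across all 14859 genes with a transcript it did likewise (rho = 0.61). The model's 20 nM log2 fold changes of the 43 genes did not follow GC content (rho = -0.04). Those fold changes are already adjusted for a covariate that takes its extreme value in this library (given below). Unadjusted fold changes were not set against GC content. These correlations are descriptions across genes, which share the libraries and are not independent replicates. With transcript length the same difference had a rho of -0.08 (r = -0.20) over the 43 genes and -0.23 (r = -0.18) over all genes. The part of GC content in any single result was not tested. For the core autophagy genes past the threshold, values are given below with and without 20 nM replicate 3. So are those of some other genes at which that library decides a call or lies far out.

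**Figure D1:**
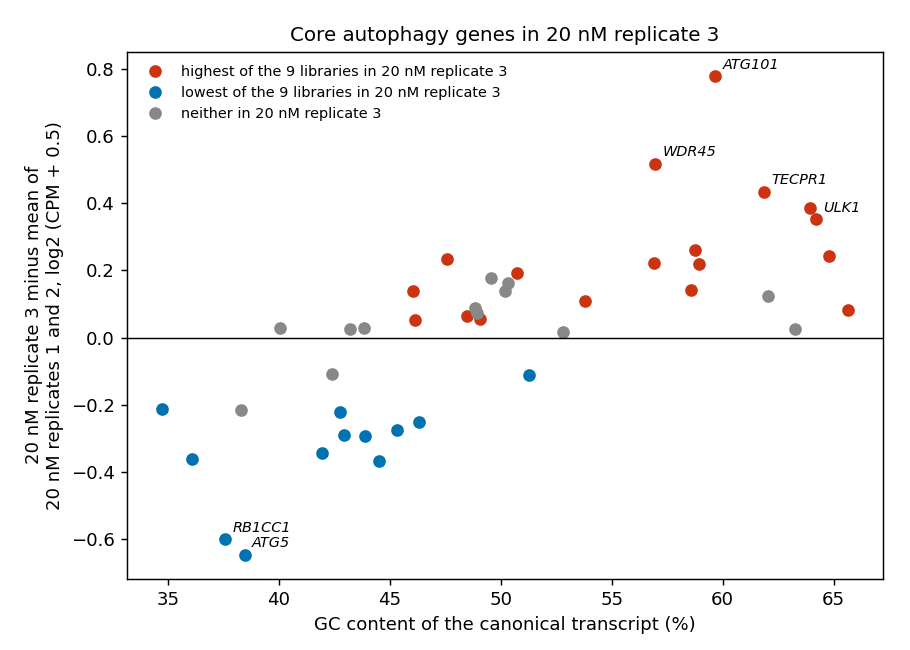
Each point is 1 of the 43 core autophagy genes; the x axis gives the GC content of its canonical transcript in percent and the y axis the difference of 20 nM replicate 3 from the mean of the other 20 nM libraries in log2 (CPM + 0.5). The 18 genes highest in that library (red) lie mostly to the right and the 12 lowest (blue) to the left, from ATG5 at -0.64 to ATG101 at 0.78.

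Whether mRNAs of the machinery carry the letters that a microRNA pairs with was read from the annotation. In the longest annotated 3′ UTR of each gene (GENCODE 44, GRCh38.p14), 13 of the 43 genes (30.2%) had an 8-mer or 7-mer match, against 3114 of 13777 genes (22.6%) with a 3′ UTR of at least 50 bases, and 3 of the 43 (6.98%) had an 8-mer, against 4.61%. The searched letters were GGTGAGAA (8-mer), GGTGAGA (7-mer of bases 2 to 8), GTGAGAA (7-mer of bases 2 to 7 followed by A) and GTGAGA (6-mer) on the transcript strand, each gene being given its longest match. The same 13 genes resulted when any annotated 3′ UTR or that of the canonical transcript was searched. The mature microRNA is shown first (RefSeq, chr5:179798278-179798300, minus strand, seed in capitals), then the matches of the 5 genes with a match that changed, then the 8-mers of the 2 genes that have an 8-mer without a change. Matches are in capitals, 5′ to 3′ on the transcript strand with 11 bases on either side.
miR-1229-3p: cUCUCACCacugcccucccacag
PIK3R4: tatgttatagaGGTGAGAAatgtaaaatat
ATG16L1: gtgttagagctGGTGAGAgaggagtcagg
ATG10: atagggttgctGTGAGAAccacatgagat
RUBCN: tacaatgttatGTGAGAAgaagttagaaa
PIK3C3: gataagctgctGGTGAGAgcagagttggg
ULK2: cacagagttgaGGTGAGAAataagttaatg
EPG5: ttttatataatGGTGAGAAacaggaagaaa

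All of these lie in 3′ UTR exons. The 8-mer of PIK3R4 fills chr3:130679061-130679068 (minus strand), bases 247 to 254 of a 3′ UTR of 381 bases. The matches of ATG16L1 (chr2:233295449-233295455, plus), ATG10 (chr5:82255234-82255240, plus), RUBCN (chr3:197669841-197669847, minus) and PIK3C3 (chr18:42083789-42083795, plus) lie at bases 1099, 1171, 5171 and 2652 of 3′ UTRs of 1324, 2070, 6151 and 6693 bases. ULK2 (chr17:19771650-19771657, minus) and EPG5 (chr18:45847673-45847680, minus) each carry a 7-mer besides the 8-mer. The other 6 genes with a match have a single 7-mer: ATG101 and ATG13 that of bases 2 to 8, and ATG12, ATG2B, ATG4C and MAP1LC3B that of bases 2 to 7 and A.

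In control cells the machinery spanned a 141-fold range of level. Compared per kilobase of merged exon, which is the only scale on which genes are set against each other here, GABARAP was highest at 127 ± 5.37 CPM per kb (mean ± SD, n = 3), followed by WDR45B (43.7 ± 0.125), ULK3 (25.7 ± 0.799), GABARAPL2 (22 ± 0.259) and MAP1LC3A (19.4 ± 0.599). The means of these neighbours are further apart than their SDs, which do not cover the choice of length. GABARAPL2 has 3.01 kb of merged exon but a canonical transcript of 974 bases, and WDR45B 3.54 kb and 2496 bases. Another length could change this order. The lowest were MAP1LC3C (0.897 ± 0.162), ATG9B (1.57 ± 0.105), GABARAPL1 (1.61 ± 0.146) and EPG5 (1.69 ± 0.0484), of which the last 3 lie within 1 SD of a neighbour. The median gene of the machinery stood at 6.02 CPM per kb, near the median of all genes (5.14).

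At 10 nM, 0 of the 43 genes were differentially expressed (quasi-likelihood test of edgeR, p adjusted by Benjamini-Hochberg over 14943 genes, under 0.05), against 0.649% of all genes, and the lowest adjusted p of a member was 0.209. An unadjusted p under 0.05 was reached by 6 of the 43 (14%; 5 higher, 1 lower), against 13.9% of all genes, and DESeq2 and the likelihood-ratio test of edgeR also made 0 calls. The fit by group holds 1 surrogate variable, and that of the dose trend 2. Such a variable is a covariate estimated from the counts to absorb variation that the groups leave unexplained. In the fit by group it was 0.907 for 20 nM replicate 3 and -0.242 to 0.0602 for the other 8 libraries. That fit thus already adjusts for 20 nM replicate 3. Agreement between its values and those without that library is therefore partly built in. At 20 nM, 8 of the 43 (18.6%) were differentially expressed, 4 higher (TECPR1, WIPI2, BECN1 and PIK3C3) and 4 lower (PIK3R4, ATG10, RUBCN and ATG16L1), against 13.9% of all genes (7.8% higher, 6.08% lower). The share is near that of all genes, so the machinery as a whole was not set apart by its count. Its median log2 fold change was 0.01, against 0.00 for all genes, and 31 of the 43 values lay within 0.2 of 0. The extremes were -0.41 (ATG10) and 0.45 (TECPR1). That fit does not pair the libraries by replicate number. With the number from the titles as a block, 6 of the 43 passed at 20 nM, against 13.6% of all genes. PIK3C3, RUBCN and ATG16L1 then missed the threshold and WIPI1 passed.

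The direct contrast of the concentrations, which does not lean on the controls as its reference, passed for 1 gene (TECPR1, higher at 20 nM), against 2.79% of all genes in either direction and 1.91% higher. With concentration fitted as a number over all 9 libraries (fold change per 20 nM), 9 of the 43 genes had a dose trend, the 8 named above in the same directions and WDR45, higher, against 17.5% of all genes (9.84% higher, 7.69% lower). The comparisons of 10 nM and 20 nM share their control libraries, so their values are set side by side below and not counted as separate evidence.

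**Figure D2:**
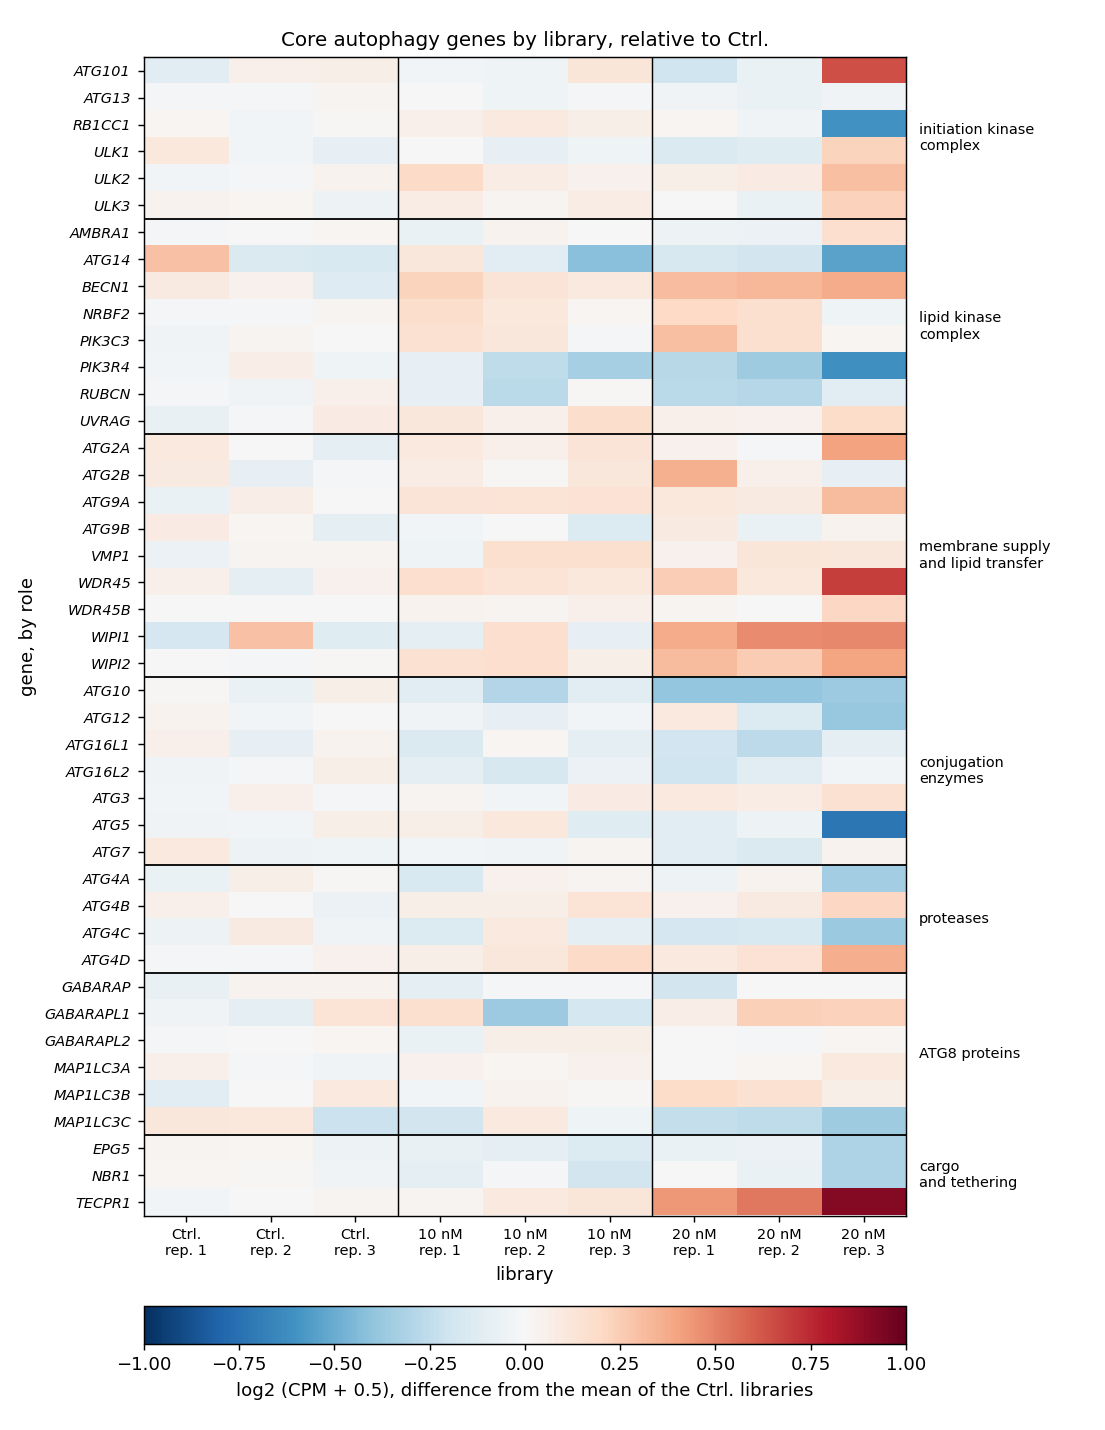
Rows are the 43 genes grouped by role and columns the 9 libraries; color gives log2 (CPM + 0.5) minus the mean of the 3 Ctrl. libraries, before any correction for surrogate variables. Most rows stay pale, TECPR1, WIPI2 and BECN1 are red in all 3 libraries of 20 nM, ATG10 and PIK3R4 blue, and 20 nM replicate 3 has the strongest colors in both directions.

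Genes that fell carried a seed match in these fits, although not under every alternative. At 20 nM and in the dose trend the lower genes were PIK3R4, ATG10, RUBCN and ATG16L1, 4 of 4 with a 7-mer or 8-mer, while of the higher genes PIK3C3 did (1 of 4 at 20 nM, 1 of 5 in the trend). Among all genes with a 3′ UTR, 38% of those lower at 20 nM and 21.8% of those higher had such a match. Of the 13 genes with a match, 4 fell, 1 rose and 8 did not pass the test at 20 nM (38.5% called, 30.8% lower). Among all 3114 genes with a match, 326 were lower and 251 higher at 20 nM. Of the 30 autophagy genes without, 3 rose and 0 fell (10% called). Over all genes, with or without a match, 13.9% were called and 6.08% were lower. Of the log2 fold changes of the 13, 8 were negative, and their median was -0.05, against 0.02 for the 30 genes without. Both ULK2 and EPG5, with 8-mers, did not pass. Under some alternatives fewer genes were lower at 20 nM. With no surrogate variable, or with the replicate number from the titles as a block, there were 2 (ATG10 and PIK3R4). Without Ctrl. replicate 3 or 20 nM replicate 1 there was 1 (PIK3R4), and without 20 nM replicate 2 there were 0. Genes with no match were lower under some alternatives: GABARAP at 20 nM with 3 surrogate variables, and in the dose trend GABARAP without 20 nM replicate 2, ATG5 and RB1CC1 without 20 nM replicate 1, and ATG14 with the replicate number from the titles as a block (called the replicate block below) or with genes of at least 5 CPM alone.

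**Figure D3:**
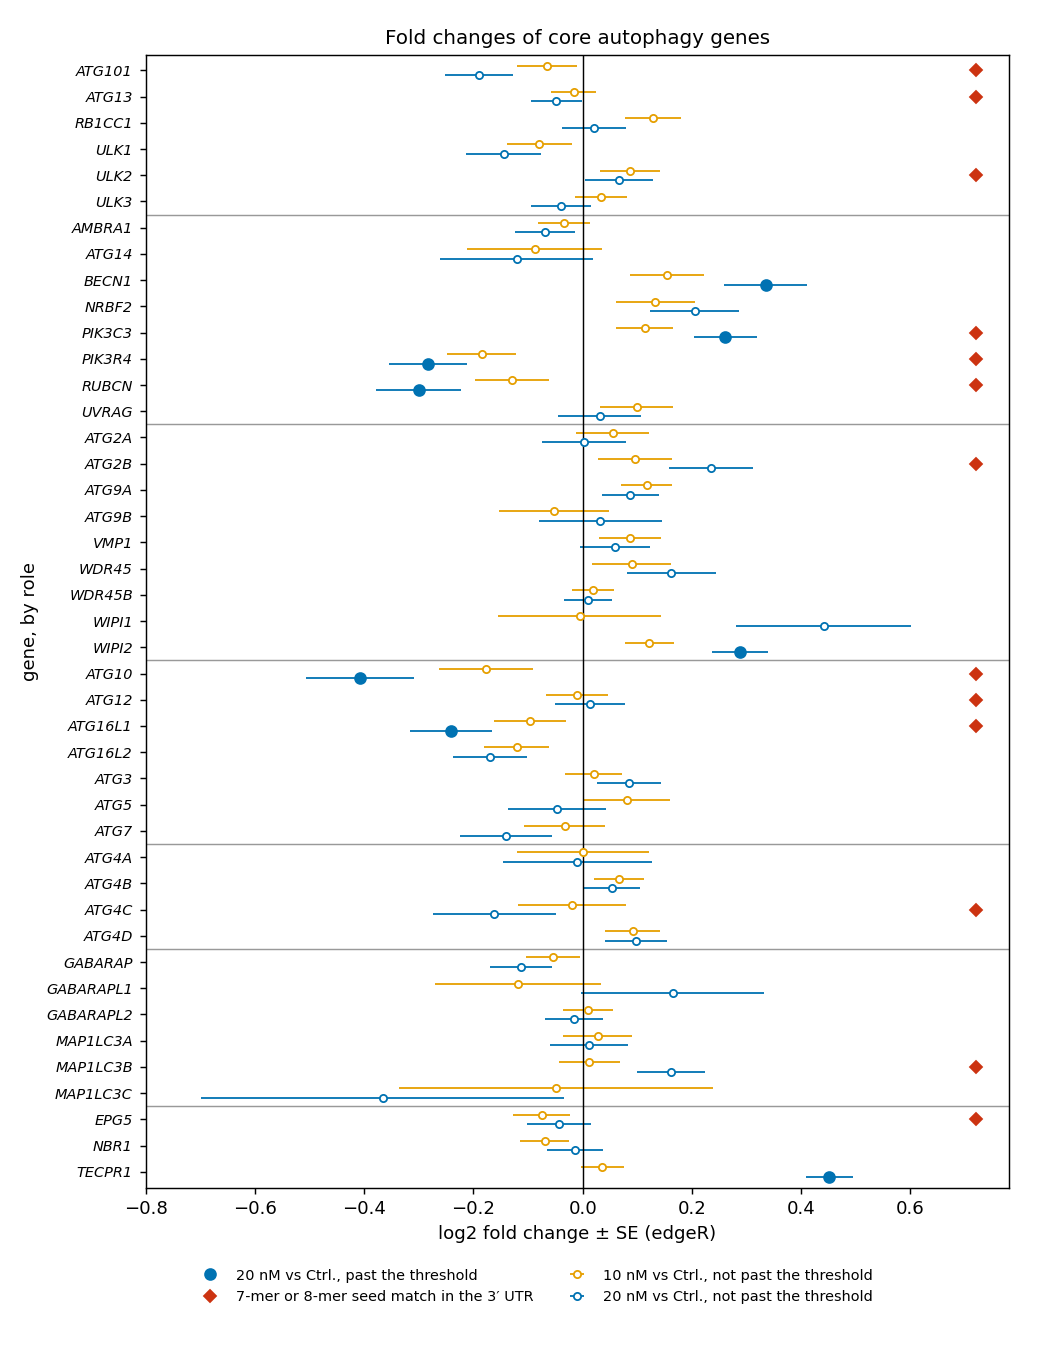
Log2 fold change with its standard error against Ctrl. for each gene at 10 nM (orange) and 20 nM (blue), from the fit with 1 surrogate variable; filled points passed the adjusted p of 0.05 and red diamonds mark the 13 genes with a 7-mer or 8-mer seed match. All 4 filled points left of 0 have a diamond, as has 1 of the 4 on the right.

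Of the 8 genes of the lipid kinase complex and its regulators, 4 (50%) passed at 20 nM, against 13.9% of all genes, and 2 of these calls, PIK3C3 and RUBCN, were lost with no surrogate variable and with the replicate block. PIK3C3, the catalytic subunit, and BECN1, its scaffold, rose at 20 nM, whereas PIK3R4, the regulatory subunit that PIK3C3 binds, and RUBCN, an inhibitor of the complex that acts late in the pathway, fell. Of its 8 genes the other 4, ATG14, UVRAG, NRBF2 and AMBRA1, did not pass in any comparison, with 20 nM log2 fold changes of -0.12 to 0.20. With the replicate block ATG14 passed in the dose trend (-0.31, edgeR adjusted p = 0.0374).

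PIK3R4 (ENSG00000196455, chr3:130678934-130746829, minus strand) was at 38, 40.6 and 37.5 CPM in the Ctrl. libraries (replicates 1 to 3), at 36.4, 32.3 and 30.5 CPM at 10 nM and at 31.8, 30.1 and 25.2 CPM at 20 nM. Both groups with mimic lay wholly below Ctrl., and 20 nM replicate 3 was the lowest. The log2 fold change was -0.19 ± 0.06 (± SE throughout; edgeR adjusted p = 0.209) at 10 nM, and at 20 nM -0.28 ± 0.07 (edgeR adjusted p = 0.0206), that is 0.822 of the control level. Without 20 nM replicate 3 the value at 20 nM was -0.32 (edgeR adjusted p = 0.00672), and without 20 nM replicate 2 or Ctrl. replicate 2 it missed the threshold.

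PIK3C3 (ENSG00000078142, chr18:41955234-42087830, plus strand) was at 50.8, 53.2 and 52.2 CPM in Ctrl., 57.8, 56.4 and 51.6 CPM at 10 nM and 64.2, 58.4 and 52.7 CPM at 20 nM. The CPM ranges overlapped, since 20 nM replicate 3 lay among the controls. The fitted log2 fold change was 0.26 ± 0.06 (edgeR adjusted p = 0.0108) for 20 nM and 0.11 ± 0.05 for 10 nM (edgeR adjusted p = 0.358). The call rests on the surrogate variable: with none it was 0.17 (edgeR adjusted p = 0.227) and with the replicate block 0.16 (edgeR adjusted p = 0.147; dose trend 0.116), while without 20 nM replicate 3 it was 0.23 (edgeR adjusted p = 0.0126) and without 20 nM replicate 1 it missed the threshold.

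BECN1 (ENSG00000126581, chr17:42810134-42833350, minus strand) was at 35.8, 34.6 and 30.6 CPM in Ctrl., 39.3, 36.9 and 36.1 CPM at 10 nM and 41.8, 42.4 and 43.6 CPM at 20 nM. The 3 groups did not overlap, and each step in concentration lay above the one before. The log2 fold change was 0.15 ± 0.07 (edgeR adjusted p = 0.336) at 10 nM, and at 20 nM 0.34 ± 0.08 (edgeR adjusted p = 0.0114), 1.26-fold, and 0.32 (edgeR adjusted p = 0.00537) without 20 nM replicate 3. Without 20 nM replicate 2 it missed the threshold (edgeR adjusted p = 0.0513). BECN1 shares 12.4% of its exon bases with CNTD1 and 4.7% with PSME3 on the opposite strand, and neither of those changed past the threshold at 20 nM (edgeR adjusted p = 0.647 and 0.274).

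RUBCN (ENSG00000145016, chr3:197668867-197749727, minus strand) was at 43.7, 43 and 45.7 CPM in Ctrl., 41.8, 36.5 and 44.5 CPM at 10 nM and 36.5, 36 and 41.1 CPM at 20 nM. The 20 nM libraries lay below all controls, by the least in replicate 3. Its log2 fold change at 20 nM was -0.30 ± 0.08 (edgeR adjusted p = 0.0214), and -0.29 (edgeR adjusted p = 0.00816) without 20 nM replicate 3. With no surrogate variable it was -0.22 (edgeR adjusted p = 0.145), with the replicate block also -0.22 (edgeR adjusted p = 0.0507), and without Ctrl. replicate 3 or either other 20 nM library the threshold was missed. Of its exon bases 53.8% are also covered by a non-coding gene on the opposite strand.

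Ratios within a library compare these genes without a model, although a ratio does not tell which of its genes moved. The CPM of PIK3C3 divided by that of PIK3R4 was 1.34, 1.31 and 1.39 in the Ctrl. libraries, 1.59, 1.74 and 1.69 at 10 nM and 2.02, 1.94 and 2.1 at 20 nM. For BECN1 over PIK3R4 the ratios were 0.943, 0.852 and 0.817 in Ctrl., 1.08, 1.14 and 1.18 at 10 nM and 1.31, 1.41 and 1.73 at 20 nM. Both ratios increased from group to group with no overlap. For BECN1 over RUBCN they were 0.819, 0.804 and 0.669 in Ctrl., 0.941, 1.01 and 0.81 at 10 nM and 1.15, 1.18 and 1.06 at 20 nM, so that 20 nM lay above the rest and 10 nM overlapped Ctrl. The pairs were chosen after their values were seen, so no test is given. Protein levels were not analysed here.

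**Figure D4:**
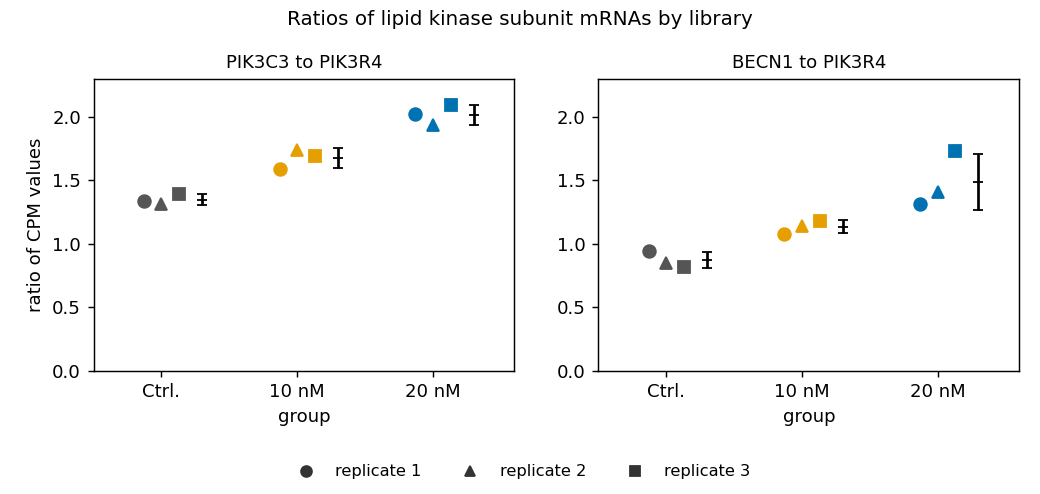
Ratio of CPM values within each library for PIK3C3 to PIK3R4 (left) and BECN1 to PIK3R4 (right), by group, with the replicates as points and the mean ± SD (n = 3) beside them. The PIK3C3 to PIK3R4 ratio has a mean of 1.35 in Ctrl., 1.67 at 10 nM and 2.02 at 20 nM.

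The initiation kinase complex showed no change past the threshold in 4 comparisons, with 0 of 6 genes called and 20 nM log2 fold changes of -0.19 to 0.07. Over all genes, 13.9% passed at 20 nM and 17.5% in the dose trend. ULK1, the kinase that starts the pathway, was at 118, 107 and 103 CPM in Ctrl., 109, 103 and 106 CPM at 10 nM and 98.6, 101 and 127 CPM at 20 nM. The 2 other 20 nM libraries were below all controls and replicate 3 above them, and the log2 fold change was -0.14 ± 0.07 (edgeR adjusted p = 0.191), and -0.14 (edgeR adjusted p = 0.106) without replicate 3. ULK2, its relative with an 8-mer and a 7-mer, was at 53.4, 54.2 and 55.9 CPM in Ctrl., 62.2, 57.4 and 56.2 CPM at 10 nM and 56.7, 57.6 and 67.3 CPM at 20 nM. Every library with mimic lay above the controls, and the log2 fold change was 0.07 ± 0.06 at 20 nM (edgeR adjusted p = 0.543).

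The adaptors of the ULK complex with a 7-mer, ATG13 and ATG101, differed in how much single libraries varied. ATG13 was at 84.9, 84.3 and 87.2 CPM in Ctrl., 85.9, 83.1 and 84.7 CPM at 10 nM and 83.5, 81.8 and 83.6 CPM at 20 nM, a spread of a few CPM over all libraries, with a 20 nM log2 fold change of -0.05 ± 0.05 (edgeR adjusted p = 0.548). ATG101 was at 37.1, 41.2 and 41.4 CPM in Ctrl., 39.1, 38.7 and 43.3 CPM at 10 nM and 34.7, 38.1 and 62.7 CPM at 20 nM. The last library thus stood far above the rest while the model gave a negative log2 fold change, -0.19 ± 0.06 (edgeR adjusted p = 0.0639), so the sign at 20 nM differs between the mean CPM and the fit. Without that library the value was -0.13 (edgeR adjusted p = 0.19).

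Among the 9 genes for membrane supply and lipid transfer, WIPI2 rose at 20 nM and WDR45 in the dose trend, and the 7 others did not pass. The shares of all genes called there were 13.9% and 17.5%. WIPI2, a reader of phosphatidylinositol 3-phosphate that recruits ATG16L1, lies at chr7:5190196-5233840 (plus strand, ENSG00000157954). It was at 110, 110 and 111 CPM in Ctrl., 123, 124 and 115 CPM at 10 nM and 137, 132 and 145 CPM at 20 nM. The groups did not overlap, and the controls were within 2 CPM of each other. The log2 fold change was 0.12 ± 0.05 (edgeR adjusted p = 0.258) at 10 nM, and at 20 nM 0.29 ± 0.05 (edgeR adjusted p = 0.0029), 1.22-fold. It was 0.28 (edgeR adjusted p = 0.000939) without 20 nM replicate 3 and stayed past the threshold at 20 nM under all 20 alternatives. Those include the fit with no further filter, which equals the main one.

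WDR45, which encodes WIPI4, a partner of ATG2 (X chromosome, 49074433 to 49101170, minus strand, ENSG00000196998), was at 43.2, 39.1 and 43.1 CPM in Ctrl., 47.1, 46.1 and 45.1 CPM at 10 nM and 49.5, 45 and 67.8 CPM at 20 nM. All libraries with mimic lay above the controls. The dose trend of 0.25 ± 0.07 per 20 nM (edgeR adjusted p = 0.0332) rested on 20 nM replicate 3, without which it was 0.18 (edgeR adjusted p = 0.0774). It also missed the threshold with no surrogate variable and without Ctrl. replicate 2 or 3. A gene model on the same strand shares 14.4% of its exon bases.

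ATG9A, the membrane-spanning lipid scramblase carried by ATG9 vesicles, was at 59, 64.8 and 62.2 CPM in Ctrl., 67.7, 68.2 and 68.6 CPM at 10 nM and 66.8, 65.8 and 77.3 CPM at 20 nM. Both groups with mimic lay above Ctrl., yet the log2 fold changes of 0.12 ± 0.05 (edgeR adjusted p = 0.286) and 0.09 ± 0.05 (edgeR adjusted p = 0.313) did not pass. ATG2B, a lipid transfer protein with a 7-mer in its mRNA, was at 67.8, 60.1 and 63.2 CPM in Ctrl., 66.9, 64 and 69 CPM at 10 nM and 81.4, 66 and 59.9 CPM at 20 nM. The groups overlapped, and the log2 fold change of 0.23 ± 0.08 at 20 nM (edgeR adjusted p = 0.0603) was just outside the threshold. Without 20 nM replicate 3, the lowest of its group, it was 0.21 (edgeR adjusted p = 0.0953), and the dose trend then passed (0.22, edgeR adjusted p = 0.0442). WIPI1 had the second highest log2 fold change of the machinery at 20 nM, 0.44 ± 0.16, but at 5.69 to 9.2 CPM its spread was wide (edgeR adjusted p = 0.0895), and with the replicate block it passed (0.47, edgeR adjusted p = 0.0314; dose trend 0.48, edgeR adjusted p = 0.0366).

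The conjugation enzymes, which join ATG12 to ATG5 and ATG8 proteins to lipid, gave 2 lower genes of 7 at 20 nM and none higher. Of all genes, 6.08% were lower and 7.8% higher there. ATG10, the E2-like enzyme that passes ATG12 to ATG5 (ENSG00000152348, chr5:81972023-82276857, plus strand), was at 15, 14.2 and 15.5 CPM in Ctrl., 13.8, 12.1 and 13.8 CPM at 10 nM and 11.3, 11.3 and 11.5 CPM at 20 nM. The 3 groups did not overlap and 20 nM replicate 3 did not stand out. The log2 fold change was -0.18 ± 0.09 (edgeR adjusted p = 0.385) at 10 nM, and at 20 nM -0.41 ± 0.10 (edgeR adjusted p = 0.0166), 0.754 of the control level, and -0.41 (edgeR adjusted p = 0.00933) without 20 nM replicate 3. It missed the threshold without Ctrl. replicate 3 or 20 nM replicates 1 or 2, but held its dose trend in each of these fits. RPS23, on the opposite strand of 6.9% of its exon bases, was at 503 CPM in Ctrl. and 546 CPM at 20 nM (edgeR adjusted p = 0.283).

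ATG16L1, which brings the ATG12 and ATG5 conjugate to the membrane and binds WIPI2 (ENSG00000281089 in the count table, matched by symbol to chr2:233210051-233295674, plus strand), was at 35.6, 32.4 and 35.2 CPM in Ctrl., 31, 34.7 and 32.1 CPM at 10 nM and 30, 28.6 and 32.3 CPM at 20 nM. The 20 nM libraries lay below the controls, by a narrow margin in replicate 3. Its log2 fold change of -0.24 ± 0.07 at 20 nM (edgeR adjusted p = 0.0491) was at the edge of the threshold and was lost under 10 of 20 alternatives, DESeq2 and the fit with no surrogate variable (-0.19) among them. With the replicate block it was -0.19 (edgeR adjusted p = 0.137; dose trend 0.109). Without 20 nM replicate 3 it was -0.24 (edgeR adjusted p = 0.0403).

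The other conjugation genes did not pass. ATG12, the ubiquitin-like protein itself, with a 7-mer, was at 53.9, 51.4 and 52.2 CPM in Ctrl., 51.1, 49.7 and 51.5 CPM at 10 nM and 56.2, 47.8 and 40.2 CPM at 20 nM, so the 20 nM libraries spanned the controls on both sides. ATG5 was at 21.5, 21.7 and 23 CPM in Ctrl., 23, 23.7 and 20.3 CPM at 10 nM and 20.5, 21.2 and 13.2 CPM at 20 nM. Its lowest value was again that of replicate 3, and its 20 nM log2 fold change was -0.05 ± 0.09 (edgeR adjusted p = 0.797), and -0.08 (edgeR adjusted p = 0.525) without that library. ATG7, the E1-like enzyme of both reactions, was at 20.2, 18.2 and 18.4 CPM in Ctrl., 18.5, 18.5 and 19.3 CPM at 10 nM and 17.5, 17.1 and 19.4 CPM at 20 nM, with a log2 fold change of -0.14 ± 0.08 (edgeR adjusted p = 0.31).

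Neither the ATG4 proteases, which trim and release ATG8 proteins, nor the ATG8 proteins themselves held a gene past the threshold. The counts were 0 of 4 and 0 of 6, where 13.9% of all genes passed at 20 nM and 17.5% in the dose trend. With the replicate block ATG4D, 1 of the proteases, passed in the dose trend (0.21, edgeR adjusted p = 0.0449). ATG4C, with a 7-mer, was at 11.2, 12.4 and 11.4 CPM in Ctrl., 10.6, 12.6 and 10.9 CPM at 10 nM and 10.3, 10.4 and 8.91 CPM at 20 nM. Its 20 nM libraries lay below the controls, with a log2 fold change of -0.16 ± 0.11 (edgeR adjusted p = 0.385). MAP1LC3B, the LC3 protein most used to follow autophagy, has a 7-mer and was at 64, 69 and 73.8 CPM in Ctrl., 67.6, 70.5 and 69.3 CPM at 10 nM and 78.2, 76.4 and 71.7 CPM at 20 nM. The log2 fold change was 0.16 ± 0.06 at 20 nM (edgeR adjusted p = 0.111), and the groups overlapped. With 3 surrogate variables or without Ctrl. replicate 3, MAP1LC3B was called higher at 20 nM. GABARAPL2 was at 65.6, 66.1 and 67.1 CPM in Ctrl., 63.3, 68.9 and 69 CPM at 10 nM and 66.5, 65.6 and 67.3 CPM at 20 nM, with a log2 fold change of -0.02 ± 0.05 (edgeR adjusted p = 0.89). MAP1LC3C, at 0.729 to 1.2 CPM, was too low for its 20 nM value of -0.37 ± 0.33 to be told from 0.

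TECPR1 showed the largest change of the machinery in the 20 nM comparison. It encodes a tethering protein that binds the ATG12 and ATG5 conjugate and phosphatidylinositol 3-phosphate at autophagosomes and lysosomes (ENSG00000205356, chr7:98214624-98252232, minus strand). It was at 72, 73.7 and 74.7 CPM in Ctrl., 75.1, 78.7 and 79.8 CPM at 10 nM and 99.4, 106 and 139 CPM at 20 nM. The groups did not overlap, and 20 nM replicate 3 was the highest by far. The log2 fold change of TECPR1 came to 0.04 ± 0.04 at 10 nM (edgeR adjusted p = 0.722), 0.45 ± 0.04 at 20 nM (edgeR adjusted p = 3.87e-05), 1.37-fold, and 0.42 ± 0.04 between the concentrations (edgeR adjusted p = 0.00016). Without 20 nM replicate 3 the 20 nM value was 0.48 (edgeR adjusted p = 4.67e-05). The change at 20 nM was past the threshold under all 20 alternatives, counting the fit with no further filter, which equals the main one. That between the concentrations missed it with no surrogate variable (edgeR adjusted p = 0.0541). TECPR1 has no 6-mer, 7-mer or 8-mer match. It shares 9.2% of its exon bases with BHLHA15 on the opposite strand, a gene at 2.13 CPM in Ctrl. and 3.39 CPM at 20 nM (log2 fold change 0.72, edgeR adjusted p = 0.0373).

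The other cargo and tethering genes did not pass. EPG5, a tether of autophagosomes to lysosomes with an 8-mer and a 7-mer, was at 38.4, 38.1 and 36.4 CPM in Ctrl., 35.7, 35.4 and 34.1 CPM at 10 nM and 35.9, 36.2 and 30.2 CPM at 20 nM. All libraries with mimic lay below the controls, by little, and the log2 fold changes of -0.07 ± 0.05 (edgeR adjusted p = 0.556) and -0.04 ± 0.06 (edgeR adjusted p = 0.692) did not pass. NBR1, a receptor for ubiquitin-tagged cargo, had a 20 nM log2 fold change of -0.01 ± 0.05 (edgeR adjusted p = 0.905).

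**Figure D5:**
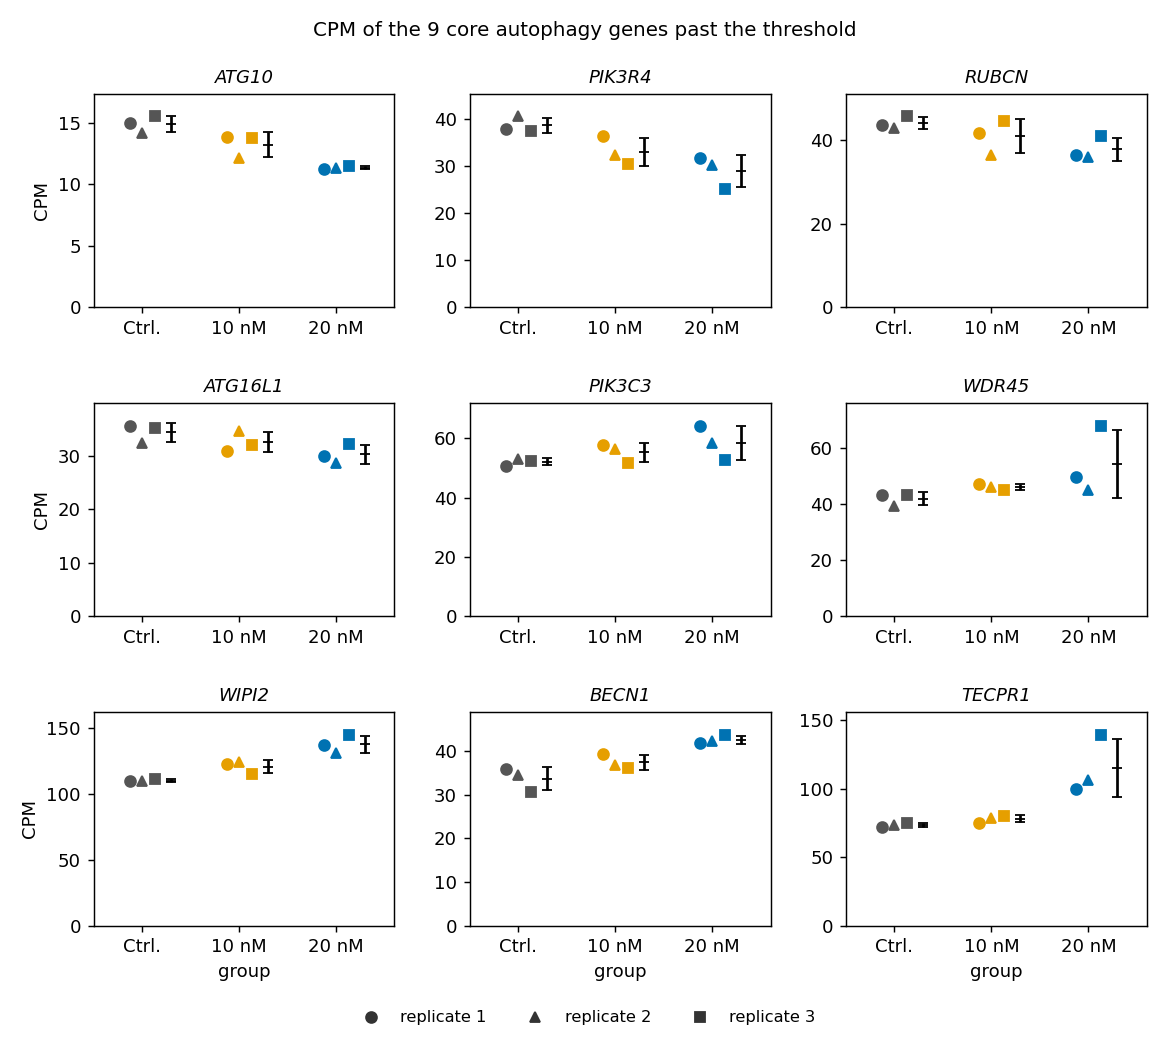
CPM in each library (points, shaped by replicate) and mean ± SD (bars, n = 3) for the 9 genes past the threshold at 20 nM or in the dose trend, ordered from the most negative dose trend (ATG10) to the most positive (TECPR1). Points of 20 nM and Ctrl. do not overlap except for PIK3C3, and 20 nM replicate 3 (square) lies apart for TECPR1 and WDR45.

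By range alone, the CPM of the 20 nM libraries lay wholly above Ctrl. for 11 of the 43 genes and wholly below for 10, against 15.2% and 13.7% of all genes, and at 10 nM for 10 and 4, against 10.1% and 9.9%. Of the 21 genes apart at 20 nM, 7 were differentially expressed there, and PIK3C3, the eighth, overlapped.

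Around the machinery, 61 of 62 genes of 4 lists (TORC1 and AMPK inputs, cargo receptors, autophagosome fusion, transcription factors of autophagy and lysosome genes) were measured. At 20 nM 4 were higher and 4 lower (13.1%, against 13.9% of all genes), and in the dose trend 3 were higher and 4 lower (11.5%, against 17.5%), so these lists did not stand out by count either. At 10 nM the gene that passed was MTOR, lower.

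Of 24 inputs, the kinase MTOR, whose complex TORC1 holds autophagy back and whose mRNA has an 8-mer, was at 131, 125 and 131 CPM in Ctrl., 110.3, 117 and 113 CPM at 10 nM and 104, 106 and 134 CPM at 20 nM. The 10 nM libraries and 2 of 20 nM lay below all controls, and 20 nM replicate 3 above them. MTOR fell in the dose trend (log2 fold change -0.27 ± 0.05, edgeR adjusted p = 0.00234), and without that library the trend was -0.31 (edgeR adjusted p = 0.000494). The call was lost with no surrogate variable (edgeR adjusted p = 0.244) and with the replicate block (edgeR adjusted p = 0.159), and the call at 10 nM (edgeR adjusted p = 0.0323) was lost with the block (edgeR adjusted p = 0.533) and without 20 nM replicate 3 (edgeR adjusted p = 0.0508).

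AKT1S1, an inhibitor within TORC1, was at 100.4, 96 and 93.1 CPM in Ctrl., 108, 105 and 104 CPM at 10 nM and 110.3, 106 and 132 CPM at 20 nM. All libraries with mimic lay above the controls, and the dose trend was 0.21 ± 0.06 (edgeR adjusted p = 0.0182). Without 20 nM replicate 3 the trend was 0.18 (edgeR adjusted p = 0.0249). The other 22 inputs did not pass in the dose trend, among them the subunits of AMPK, the TSC complex and the Rag GTPases.

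Of 20 cargo receptors 3 were higher at 20 nM (15%, against 7.8% of all genes higher). In the dose trend 1 of these was higher (5%, against 9.84%), STBD1, the receptor for glycogen. STBD1 was at 10.4, 13 and 11.4 CPM in Ctrl., 14.3, 12.7 and 15.7 CPM at 10 nM and 18.6, 19.4 and 19.8 CPM at 20 nM. The 20 nM libraries lay above all others, with a dose trend of 0.74 ± 0.10 (edgeR adjusted p = 0.000304). The others were the mitophagy receptor BNIP3L (0.20 ± 0.06 at 20 nM, edgeR adjusted p = 0.0359) and TAX1BP1, a receptor for ubiquitin-tagged cargo (0.21 ± 0.06, edgeR adjusted p = 0.0336). In both 20 nM replicate 3 lay below all controls and the other 20 nM libraries above them. Without 20 nM replicate 3 the values were 0.16 (edgeR adjusted p = 0.0302) and 0.19 (edgeR adjusted p = 0.0121). With the replicate block neither call held (edgeR adjusted p = 0.915 and 0.944). SQSTM1, the best known receptor, did not change past the threshold (-0.11 ± 0.10 in the dose trend, edgeR adjusted p = 0.517).

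Of 12 measured fusion genes, VPS41, a subunit of the HOPS tether, was at 131, 128 and 131 CPM in Ctrl., 117, 119.8 and 119 CPM at 10 nM and 111, 113 and 98.6 CPM at 20 nM. The 3 groups did not overlap, and VPS41 fell (dose trend -0.24 ± 0.04, edgeR adjusted p = 0.00251). VPS18 of the same complex, which has an 8-mer, fell as well (-0.27 ± 0.07, edgeR adjusted p = 0.0158), but not with the replicate block (edgeR adjusted p = 0.0988). YKT6, a SNARE of autophagosomes, was at 223, 230.4 and 238 CPM in Ctrl., 241, 249.7 and 262 CPM at 10 nM and 259.5, 261 and 329.9 CPM at 20 nM. Every library with mimic lay above the controls, and YKT6 rose (0.20 ± 0.04, edgeR adjusted p = 0.00464). Without 20 nM replicate 3 its trend was 0.16 (edgeR adjusted p = 0.0138).

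Of the 5 transcription factors FOXO3, with a 7-mer, was at 191, 177 and 192 CPM in Ctrl., 181, 179 and 174 CPM at 10 nM and 167, 155 and 170.1 CPM at 20 nM. The 20 nM libraries lay below all others, and FOXO3 fell (dose trend -0.20 ± 0.05, edgeR adjusted p = 0.0178). TFEB, TFE3, MITF and FOXO1 did not pass, with dose trends of -0.25 to 0.45. SQSTM1, VPS18, BNIP3L and TAX1BP1 are named here after their values were seen. Without 20 nM replicate 3, all 7 genes of these lists with a dose trend kept it, while with no surrogate variable 5 of them, all but STBD1 and VPS41, missed the threshold.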

How the data were processed

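Per the labels and the study's methods, the authors counted polyadenylated RNA reads with salmon on GRCh38.p13 (Ensembl annotation), aggregated by gene symbol and filtered with filterByExpr. Values in the deposited table are estimated counts (88.8% not whole). Deposited log2 values and tables of comparisons (fold changes, p-values) were not used. Whether strand was used is not given in the sources used here.

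Counts were rounded and analysed with edgeR 4.0.16 (R 4.3.3): TMM scaling, quasi-likelihood test over all 9 libraries, Benjamini-Hochberg adjustment over 14943 genes, threshold 0.05. filterByExpr removed 0 further genes. Surrogate variables came from sva 3.50.0 on log2 CPM (prior count 2, num.sv, seed 1): 1 by group, 2 for concentration. SE is the log2 fold change over the root of its F-statistic. CPM are TMM-scaled and uncorrected. Alternatives covered scaling, filter, surrogate variables, replicate block, likelihood-ratio test, DESeq2 1.42.0, single libraries left out, the groups compared alone and mimic as present or absent. Replicates of a group differed beyond sampling noise (chi-square per degree of freedom 4.68 to 46.5 between their counts). Titles give the libraries of a replicate a shared number and library names a shared letter, without saying what was shared. Same-numbered libraries correlated in their deviations from group means at 0.142 to 0.185 between Ctrl. and 10 nM. Between Ctrl. and 20 nM the values were 0.107 to 0.116. All were over 0.1, so the numbers were taken to pair the samples in those comparisons, on the values. Between 10 nM and 20 nM 1 of 3 pairs was lower (0.0288). The fit without the block stayed the main one, as in the study, so its p-values ignore this pairing. The blocked value stands beside each call that the block changed. Fits were also run on simulated libraries with known changes. Those libraries held none that stood apart and no pairing by replicate number. They therefore could not check the surrogate variables or the replicate block. Positions, 3′ UTRs and exon overlaps came from GENCODE 44 (14105 genes matched by identifier, 754 by symbol, 84 unmatched). Python 3.11.15, pandas 2.3.3, scipy 1.17.1 and matplotlib 3.10.9 were used.

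Values in every library are given for genes past the threshold in any comparison, genes with a 7-mer or 8-mer match, and ULK1, BECN1, ATG9A, ATG5, ATG7, MAP1LC3B and GABARAPL2; in the lists around the machinery, for up to 2 genes a list with a dose trend, those with the lowest adjusted p. Members, roles and lists were chosen with earlier results of these data known.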

Additional observations from a re-analysis of the deposited data

How the results depend on the processing

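The main counts were 0, 8 and 1 genes of 43 at 10 nM, at 20 nM and between concentrations, 9 in the dose trend, and 7 in the lists around the machinery. Of all genes, 0.649%, 13.9%, 2.79% and 17.5% passed in these 4 comparisons. With no surrogate variable the counts were 0, 5, 0, 5 and 2, against 0.0335%, 6.38%, 0.448% and 8.27% of all genes. With 3 surrogate variables the counts were 1 (WIPI2), 13, 3, 10 and 11, against 6.11%, 26.7%, 9.38% and 22% of all genes. The member counts thus moved with those of all genes. With the mimic coded only as present or absent, 0 of 43 and 1 of the listed genes had a trend, against 1.11% of all genes. With genes of at least 5 CPM alone, 14 listed genes and 12 of 43 had one, against 33% of all genes kept. Leaving out single libraries gave 0 to 0, 4 to 8 and 1 to 1 genes, 7 to 12 in the trend and 6 to 13 in the lists. Of all genes, 7.19% to 17.8% passed at 20 nM in these fits and 11.2% to 26.6% in the trend. The 4 at 20 nM came without 20 nM replicate 1 or 2 (8.84% and 7.19% of all genes), and without replicate 2 none of the 43 was lower. The causes were not tested. Scaling by DESeq2 size factors or by library totals changed none of the 5 counts. Across alternatives, 310 of 360 values of the 18 called results stayed past the threshold in the same direction, 50 missed it and 0 turned sign. The alternative with no further filter equals the main fit, since filterByExpr removed 0 genes. Its 18 values are among the 310 and could not have differed.

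The replicate number in the titles was tried as a block, without surrogate variables. It gave 0, 6, 1 and 10 genes and 7 listed ones, against 0.0201%, 13.6%, 0.83% and 16.4% of all genes in the same comparisons. At 20 nM PIK3C3, RUBCN and ATG16L1 missed the threshold (edgeR adjusted p = 0.147, 0.0507 and 0.137) and WIPI1 passed, and in the trend PIK3C3 and ATG16L1 missed it and WIPI1, ATG4D and ATG14 passed. Of the listed genes, MTOR, VPS18, FOXO3, BNIP3L and TAX1BP1 missed it at 20 nM (edgeR adjusted p = 0.169, 0.129, 0.0515, 0.915 and 0.944), MTOR also at 10 nM, and MTOR and VPS18 in the trend. At 3 libraries a group and SEs of about 0.05 on the log2 scale, changes like most of those at 10 nM could not be told from 0.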

Other observations

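The E-box CACGTG, the core of the motif that TFEB and its relatives bind, was looked for in promoters of 300 bases (250 before and 50 after the start site, RefSeq, GRCh38.p14; the motif reads the same on both strands). Of the 43 genes 37 had a promoter in the table, and 4 of them (10.8%) held it, ATG14, ATG3, NRBF2 and ULK3, against 9.81% of the promoters of genes in the count table. None of these 4 genes was differentially expressed in the 4 comparisons, nor was TFEB (dose trend -0.25 ± 0.18, edgeR adjusted p = 0.375). The shares of all genes called were 13.9% at 20 nM and 17.5% in the dose trend. At 20 nM an unadjusted p (edgeR) under 0.05 was reached by 1 of the 4, NRBF2, against 28% of all genes.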
